A study of Mus musculus with 4 samples.

Results

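The histone genes of mouse T helper 17 (Th17) cells were described from the gene counts of 4 RNA sequencing libraries. Th17 cells are CD4 T cells that secrete interleukin 17. Histone genes were the protein-coding rows whose GENCODE symbol starts with Hist1h, Hist2h, Hist3h, Hist4h, H2af, H3f3 or H1f, which gave 80 of the 50600 genes counted. Of these, 65 carry a Hist symbol and are called replication-dependent here, and 15 carry an H2af, H3f3 or H1f symbol and are called variant. A further 9 matching symbols were not protein-coding (8 pseudogenes and 1 antisense gene) and were left out.

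All 4 libraries belong to 1 group per the labels, made from C57BL/6NJ primary cells, and a CD4 T cell differentiation protocol is linked. Each file header names 72 hr. No genotype, treatment or control arm is given, sex, age and stage are not given, and the 4 biosamples share 1 donor identifier, so p-values measure only the spread between these samples, which may be technical. The assay is named total RNA-seq, while the title of the linked library protocol names RNA with a poly(A) tail.

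Total counts ranged from 33123029 to 37746767 per library, and protein-coding genes held 98.8% to 98.9% of them. All 10 Th17 and T cell markers were above 1 TPM (transcript abundance from counts divided by gene length, rescaled so that every library has the same total). In replicates 1 to 4 their summed TPM was 7986, 3158, 7517 and 7305, with most of the fall in replicate 2 from Il17a and Il17f. Replicate 2 stood apart over all genes too: a chi-square comparison of counts gave 40.5 to 45.3 per degree of freedom for pairs with it and 4.22 to 6.16 for the other pairs, so results that rest on it are given without it. Summed TPM was 1.89 to 2.25 for 6 B cell, 32.8 to 52.5 for 6 CD8 T and NK cell, 11.8 to 13.8 for 6 myeloid, 0.249 to 1.41 for 6 erythroid and 0.400 to 0.939 for 6 germline markers, and Prm1 and Tnp1 of the last list had 0 counts. Of the CD8 T and NK sum nearly all was Cd8b1, at a mean of 42.0 TPM, while Cd8a was at 0.0379 TPM and Ncr1 at 0, and the myeloid sum was mostly Adgre1 at 7.96 and Cd14 at 3.86 TPM, with Lyz2 at 0. In bulk RNA, fewer cells of a type and less RNA per cell cannot be told apart.

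Histones package DNA into nucleosomes, with H2A, H2B, H3 and H4 forming the core and H1 binding the linker. The clustered, replication-dependent genes supply new histones in S phase. Their mRNAs classically lack introns and a poly(A) tail and end just past a conserved stem-loop, which SLBP binds and at which a complex with the U7 small nuclear RNA cuts the transcript. Variant histones such as H3.3, H2A.Z and macroH2A come from genes outside the clusters whose mRNAs are polyadenylated, are made through the cell cycle and replace the canonical forms at particular places in chromatin. Activated CD4 T cells divide quickly in culture and so need both kinds.

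The classes were set by symbol, and the stem-loop is a sequence feature found mostly, but not only, in the replication-dependent class. The form carried by 1 gene for each distinct loop is shown here. Sequences are the sense strand of GENCODE M21 transcripts (mm10), written 5′ to 3′ with 6 flanking bases on either side, and capitals mark the stem-loop of 16 bases: 6 bases of stem, a loop of 4 bases and the 6 pairing bases.
Hist1h1c: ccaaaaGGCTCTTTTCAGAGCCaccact
Hist1h4c: acaaaaGGCCCTTTTCAGGGCCacccac
Hist1h3c: aaaaaaGGCTCTTTTAAGAGCCacctaa
Hist1h4i: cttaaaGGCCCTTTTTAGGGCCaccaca
Hist1h4b: acaaaaGGTCCTTTTCAGGACCactcac
Hist2h2ac: caaaaaGGCTCTTTTTAGAGCCaccaaa
H2afx: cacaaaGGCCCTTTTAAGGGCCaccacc

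The search asked for a stem that starts with GG and ends with CC and a loop that starts with TT, on the sense strand, within 150 bases after the stop codon. At most 1 unpaired stem position was allowed, and 0 of the 43 loops found in histone genes had one. It found such a loop in 42 of the 50 replication-dependent genes with at least 30 annotated bases to search. The remaining 15 replication-dependent genes have an annotation that ends near the stop codon and could not be searched. Among variant genes, 1 of 12 searchable genes had the loop: H2afx, which codes for H2AX, the variant phosphorylated at DNA breaks. Over all coding genes with an annotated stop codon the share was 0.41% (89 of 21699), with histone genes and genes too short to search included. These 43 loops fell into 7 distinct sequences and began 21 to 58 bases after the stop codon, with a median of 32. The form shown for Hist1h1c was shared by 24 genes of the H1, H2A, H2B and H3 types, and that shown for Hist1h4c by 7 genes, all of the H4 type. The Hist1h3c form was found in 6 genes. The Hist1h4i form was also found in Hist2h4 and the Hist1h4b form in Hist1h4j, while those of H2afx and Hist2h2ac were each found in 1 histone gene.

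The loop of Hist1h1c lies at chr13:23739512-23739527 on the plus strand, that of Hist1h4i at chr13:22040966-22040981 on the minus strand and that of H2afx at chr9:44335240-44335255 on the plus strand. All 3 are in the 3′ UTR of a gene with 1 exon, and counted sequence ran 840, 330 and 822 bases past the loop in that order. AATAAA, the usual signal for poly(A) addition, was found in the last 50 bases of a transcript of 14 of 65 replication-dependent genes (21.5%), 9 of 15 variant genes (60.0%) and 65.0% of all coding genes, searched on the sense strand. A match also needed at least 50 annotated bases after the stop codon. Genes with fewer stay in these totals without a possible match: the 15 replication-dependent genes not searchable for the loop, Hist1h1a, Hist2h3b and the 3 H2afb variants. Counted exons formed 1 block in 60 of 65 replication-dependent and 8 of 15 variant genes.

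The levels of the classes lay far apart in each of the 4 libraries. The median over all 65 replication-dependent genes was 0.415, 0.716, 0.337 and 0.350 TPM in replicates 1 to 4, and that over the 15 variant genes 49.8, 50.3, 46.8 and 51.4 TPM. On the log2(TPM + 0.1) scale the replication-dependent minus the variant median was -6.60, -5.95, -6.75 and -6.84, with a mean of -6.53 ± 0.40 (SD, n = 4). The difference had 1 direction in every library and was smallest in replicate 2, and it was -6.73 as a mean without that library. It is a description with no test, since the genes were chosen by name with earlier results known. Class means of the log2 values in place of medians gave -4.10.

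Summed over genes, the variants held most of the histone signal. Replication-dependent genes summed to 156, 203, 136 and 152 TPM and variant genes to 1757, 1584, 1817 and 1807 TPM. The replication-dependent share of histone TPM was thus 8.15%, 11.3%, 6.96% and 7.75%, with a mean of 8.55% ± 1.93 (SD, n = 4) and of 7.62% without replicate 2. Replicate 2 had the highest replication-dependent sum and the lowest variant sum. In raw counts, which do not correct for the short length of the clustered genes, the replication-dependent sums were 1467, 2073, 1329 and 1634 of 46941, 49327, 51195 and 54389 histone counts.

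The types differed in which class held their TPM in these libraries, which is not a measure of histone supply in the cells. H3 TPM was nearly all variant: H3.3 genes held 98.6% ± 1.02 of it, and for H2A the variant share was 98.4% ± 0.599 (SD, n = 4 for both). For the linker histone H1 the variant share was 77.5% ± 4.84 (SD, n = 4). H2B and H4 have no member with a variant symbol in the rule, and their sums were 55.9 ± 5.38 and 39.1 ± 5.64 TPM, against 934 ± 8.18 for H2A and 681 ± 77.2 for H3 (SD, n = 4).

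**Figure D1:**
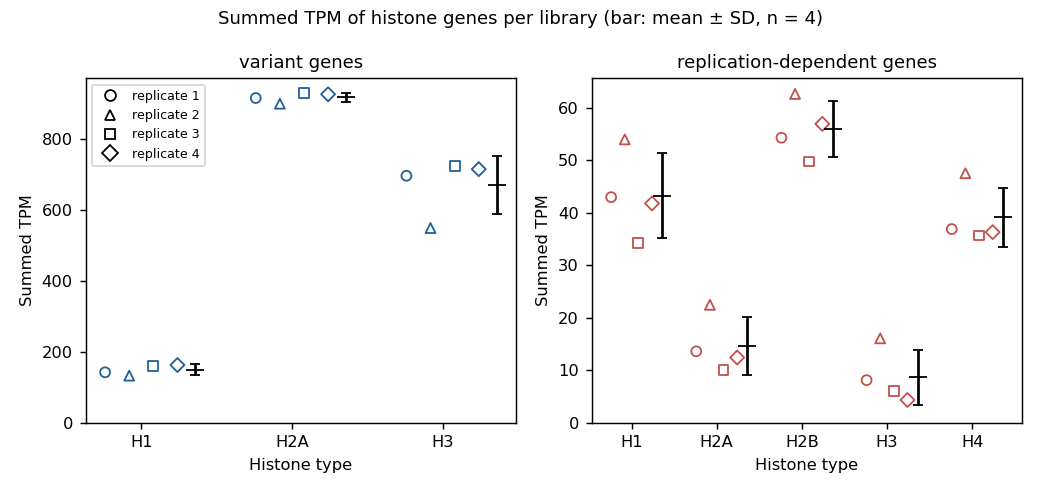
Summed TPM of histone genes by type for variant genes (left) and replication-dependent genes (right), with 1 symbol per library and a bar for the mean ± SD of 4 libraries. The axes differ in scale: variant H2A sums lie between 901 and 930 TPM, while the highest replication-dependent sum is 62.7 TPM, and replicate 2 (triangles) is the highest library for all 5 replication-dependent types.

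Of the H3 variants, H3f3b and H3f3a code for the same H3.3 protein, which is deposited outside replication by HIRA or DAXX and ATRX. H3f3b (chromosome 11, 116021912 to 116027962, minus strand) was the most abundant histone gene, at 637, 492, 664 and 657 TPM, a mean of 612 ± 81.0 (SD, n = 4). H3f3a was at 60.5, 57.7, 60.7 and 59.4 TPM. H3f3b was 8.53 to 11.0 times higher than H3f3a, with the smallest ratio in replicate 2 and no overlap between the genes. It alone held 89.8% ± 1.94 of H3 TPM.

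Of the H2A variants, H2afz codes for H2A.Z, found at promoters and exchanged by SRCAP and EP400 complexes. H2afz (chromosome 3, 137864487 to 137866922, plus strand) was at 362, 346, 379 and 371 TPM. H2afv, which codes for the second form of H2A.Z, was at 49.8, 50.3, 46.8 and 51.4 TPM, so that H2afz was 7.37 ± 0.522 times higher (SD, n = 4). H2afx was at 259, 226, 260 and 266 TPM and lay below H2afz in every library, by 1.39 to 1.53 times. H2afx, the 1 variant with the stem-loop, was the third most abundant histone gene, after H3f3b and H2afz.

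The macroH2A variants carry a large extra domain and mark inactive chromatin. H2afy, coding for macroH2A1, was at 127, 129, 128 and 128 TPM, and H2afy2, coding for macroH2A2, at 3.34, 4.78, 3.28 and 3.65 TPM. H2afy was 27.0 to 39.1 times the higher. H2afj, coding for H2A.J, was at 116, 145, 112 and 108 TPM, with replicate 2 the highest. The 3 H2afb genes of the X chromosome, variants known from testis, had 0 counts in all 4 libraries.

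Of the linker variants, H1f0 codes for H1.0, known for rising as cells stop dividing, and stood at 135, 127, 153 and 154 TPM. H1fx was at 7.22, 3.95, 7.59 and 8.66 TPM, 1 library (replicate 2) lying below the other 3. H1foo, the oocyte form, was at 0.504, 2.11, 0.872 and 0.669 TPM, and H1fnt, a testis form, had 0 counts. H1f0 was 2.68 to 5.27 times as high as Hist1h1c, the leading replication-dependent H1 gene.

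**Figure D2:**
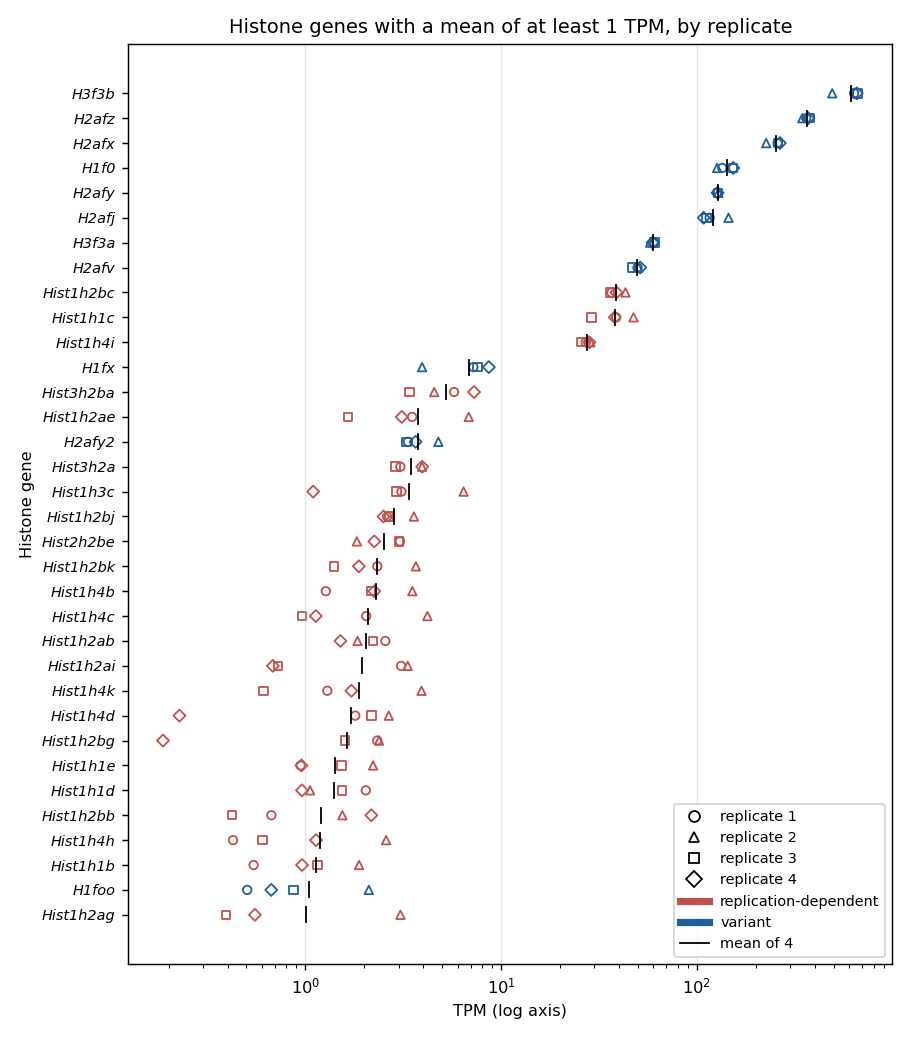
TPM (log axis) of the 34 histone genes with a mean of at least 1 TPM, with 1 symbol per library and a line at the mean. A value of 0 TPM (Hist1h2ag in replicate 1) is not drawn, and 8 variant genes lie above every replication-dependent gene, while most genes below 5 TPM are replication-dependent and spread widely between libraries.

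Among replication-dependent genes, 3 stood above 10 TPM and held 65.1% ± 4.46 (SD, n = 4) of the class's TPM: 58.8% in replicate 2 and 65.7% to 69.3% in the others. Hist1h2bc, an H2B gene (chromosome 13, 23684199 to 23692488, plus strand), was at 36.6, 43.2, 36.1 and 38.8 TPM and held 69.3% ± 2.23 of H2B TPM. Hist1h1c, the H1.2 gene (chromosome 13, 23738808 to 23740367, plus strand), was at 38.7, 47.5, 29.0 and 38.1 TPM and held 88.4% ± 2.83 of the TPM of replication-dependent H1 genes. Hist1h4i, an H4 gene (chromosome 13, 22040636 to 22041362, minus strand), was at 27.1, 28.6, 25.5 and 28.3 TPM and held 70.7% ± 7.52 of H4 TPM. Replicate 2 was the highest library for each of these genes, by a small margin for Hist1h4i. All 3 annotations depart from a transcript that ends at the loop: Hist1h1c and Hist1h4i are counted for 840 and 330 bases past it, while Hist1h2bc has 2 exons and no loop was found within 150 bases after its stop codon.

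The other 62 replication-dependent genes together summed to 53.6, 83.5, 45.2 and 46.7 TPM, from 407, 623, 379 and 419 counts. Of these, Hist3h2a (322 counts over the libraries), Hist2h2be (283) and Hist3h2ba (139) had the most counts. A count of 3 is the floor used here for a gene at 0. As a mean of the 4 libraries it stands for 0.0411 to 0.896 TPM among the members, with a median of 0.534. Levels under about 1 TPM are thus close to it. Of all 65 genes, 26 had fewer than 10 counts over all libraries, and 11 of those had 0 counts. A gene at 0 counts was not detectable at this depth, which is not the same as absent.

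By type, the H2A genes were led by Hist1h2ae, at 3.51, 6.84, 1.66 and 3.11 TPM, and Hist3h2a, at 3.06, 3.95, 2.88 and 3.95 TPM. Hist1h2ab (mean 2.03 TPM), Hist1h2ai (1.96) and Hist1h2ag (1.00) followed. The H2B genes after Hist1h2bc were Hist3h2ba, at 5.75, 4.55, 3.41 and 7.27 TPM, Hist1h2bj at a mean of 2.85, Hist2h2be at 2.54, Hist1h2bk at 2.32, Hist1h2bg at 1.62 and Hist1h2bb at 1.20 TPM. Among H3 genes only Hist1h3c had a mean of at least 1 TPM, at 3.10, 6.43, 2.92 and 1.10 TPM. After Hist1h4i the H4 genes ran from Hist1h4b at 2.30 through Hist1h4c at 2.09, Hist1h4k at 1.89 and Hist1h4d at 1.72 to Hist1h4h at 1.19 TPM. The remaining somatic H1 genes, Hist1h1e (1.411), Hist1h1d (1.397), Hist1h1b (1.13) and Hist1h1a (0.965), were close together and far below Hist1h1c, and the testis gene Hist1h1t had 1 count in all. With SDs of 0.312 to 0.603 TPM the order among those H1 genes was within the spread between libraries.

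By place, the 52 genes of the large Hist1 cluster on chromosome 13 summed to 142, 191, 126 and 138 TPM, and 33 of them had at least 10 counts over the libraries. The 10 Hist2 genes on chromosome 3 summed to 2.99 to 4.48 TPM and the 2 Hist3 genes on chromosome 11 to 6.29 to 11.2 TPM. Hist4h4 on chromosome 6 was at 0.0312 to 0.212 TPM. The Hist1 sum was highest in replicate 2, which did not hold for the Hist2, Hist3 or Hist4 sums.

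To ask which genes were above a fixed low level, each gene with at least 10 counts over the libraries was tested against 1 TPM with edgeR's quasi-likelihood model, adjusted over all 17337 genes tested by the Benjamini-Hochberg method at a threshold of 0.05. Of all genes tested, 70.7% were called above and 16.5% below. Of the 50 histone genes tested, 23 were above and 4 below, and the counts above were 20 to 25 with each replicate left out. Among variants 10 of 11 tested genes were above, the exception being H1foo, which differed from 1 TPM by 0.06 ± 0.39 on the log2 scale (SE; adjusted p = 0.882, edgeR). Among replication-dependent genes 13 of 39 tested were above, and the median level of the tested genes was 0.28 on the log2 TPM scale, against 3.41 for all genes tested and 6.91 for the tested variants. Genes with fewer counts were not tested, so these medians lie above those of all members.

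The lowest calls above 1 TPM were those nearest the threshold. Hist1h4c was above by 1.07 ± 0.42 on the log2 scale (SE; adjusted p = 0.0471, edgeR), a call lost without replicate 1 or replicate 2. Without replicate 2 the calls of Hist1h2bk and Hist1h4b were lost as well, and without replicate 1 that of Hist1h2ab. Below 1 TPM were Hist1h2be (0.465 TPM), Hist2h3c2 (0.344), Hist2h4 (0.257) and Hist4h4 (0.1002), whose counted models run 1020 to 4374 bases. Long models reach the count minimum at a lower TPM, and with no count minimum 12 histone genes were called below 1 TPM.

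The level of a replication-dependent gene was set beside what its annotation counts. The 13 genes counted for 100 bases or more past the loop held 47.9% of the class's TPM and 63.1% of its counts, though their median was 0.465 TPM. The 29 genes counted for fewer bases past it held 19.6% of TPM, with a median of 0.788 and a highest value of 3.78 TPM. The 8 searchable genes with no loop found held 27.0%, nearly all of it from Hist1h2bc, and the 15 whose annotation ends at the stop codon held 5.54%. A long counted 3′ end thus went with high levels in Hist1h1c and Hist1h4i but not in most genes that have one: Hist2h4 and Hist4h4 were below 1 TPM. Grouping all searchable members by the loop itself, in place of the symbol, gave a median difference of -2.59 on the log2(TPM + 0.1) scale.

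**Figure D3:**
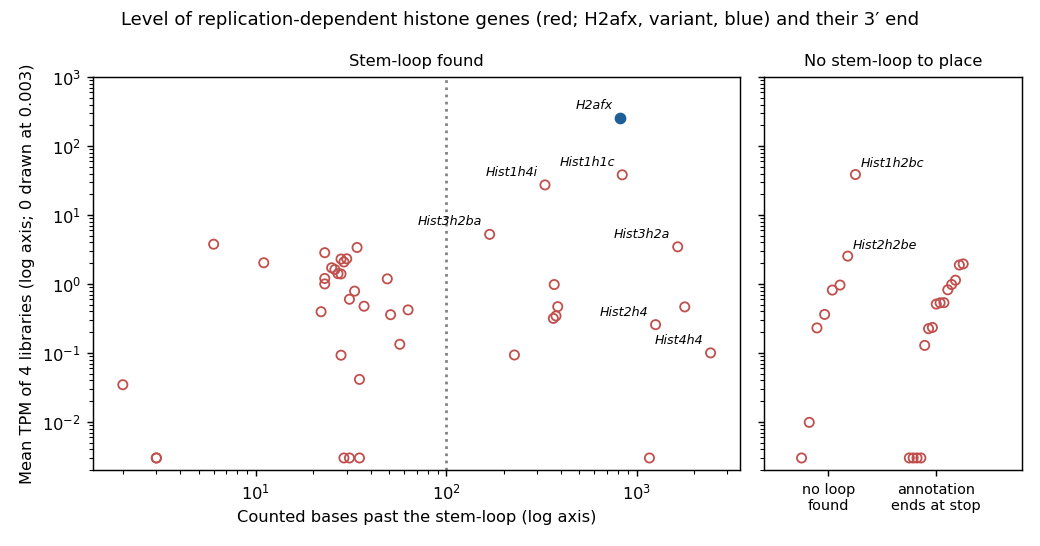
Mean TPM (log axis, 0 drawn at 0.003) of replication-dependent genes against the number of counted bases past the stem-loop (log axis, left), with genes that have no loop to place on the right and the variant H2afx in blue. The dotted line is at 100 bases; to its left no gene exceeds 3.78 TPM, and to its right genes range from 0 to 38.3 TPM for replication-dependent genes and 253 TPM for H2afx.

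Near-identical copies can hide counts, since the command in the file headers sets nothing for multimapping reads. In 32 of the 65 replication-dependent genes, and in none of the 15 variants, over 50% of the 50-base stretches of the transcripts also occur in another gene. These 32 genes had a median of 0.377 TPM, a highest level of 2.85 TPM, and 8 of the 11 genes with 0 counts. Their levels, and the split of counts among them, are uncertain. The 9 replication-dependent genes with under 10% shared stretches had a median of 0.965 TPM: they range from 0 TPM to the 38.3 TPM of Hist1h1c and include Hist2h2be at 2.54, Hist1h1d at 1.397, Hist1h1b at 1.13 and Hist1h1a at 0.965 TPM. Leaving out the 32 genes moved the class difference from -6.53 to -5.86. On the same strand Trim17 overlaps 33.0% of Hist3h2a, and Gm20634 overlaps 90.3% of Hist2h2aa1 and all of Hist2h3c1, both of which had 0 counts.

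Genes that act on histones or with them were tested against the same level, above which 70.7% of all genes tested were called. All 14 genes of histone mRNA processing, transcription and decay were above 1 TPM, from Zfp473 at 1.81 ± 0.306 TPM up to Cpsf3, the endonuclease that cuts the pre-mRNA, at 176 ± 5.29 TPM, Srrt at 151 ± 6.30 and Upf1, a helicase of mRNA decay, at 127 ± 5.69 (SD, n = 4). Slbp, the stem-loop binding protein gene, was at 50.6, 42.6, 53.2 and 49.1 TPM. Zfp473 thus lay below Hist1h2bc, Hist1h1c and Hist1h4i. So did Lsm11, which binds the U7 RNA, at 13.7 ± 1.24 TPM and Hinfp at 16.4 ± 1.02 (SD, n = 4). All 25 histone chaperone and exchange genes were above 1 TPM, from Srcap at 3.02 ± 0.207 TPM up to Ssrp1 of the FACT complex at 500 ± 32.3 TPM, Anp32e, which removes H2A.Z, at 308 ± 12.1 and Nap1l1 at 300 ± 8.92 (SD, n = 4). All 24 genes of S phase were above 1 TPM, with Rrm2, the small subunit of ribonucleotide reductase, at 493 ± 8.46, Pcna, the sliding clamp, at 381 ± 23.8 and Mcm3 at 341 ± 32.9 TPM (SD, n = 4). So were all 15 genes of G2 and mitosis, with Top2a at 270 ± 10.2, Cdc20 at 249 ± 10.5 and Plk1 at 163 ± 13.1 TPM (SD, n = 4).

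The S phase genes summed to 3338 to 3734 TPM over 24 genes and the replication-dependent histones to 136 to 203 TPM over 65. Beside these, 8 small and nuclear RNAs without a poly(A) tail were listed, of which 7 were among the genes counted. Their sum was 23.1 to 33.4 TPM: Rpph1 was at 10.5 ± 2.92, Rn7sk at 9.63 ± 2.31 and Rmrp at 5.33 ± 2.24 TPM (SD, n = 4), and Rnu7, the U7 RNA, Rnu11 and Rnu12 had 0 counts. Of the 4 tested, 3 were above 1 TPM, beside 70.7% of all genes tested. These values cannot decide which RNA was selected, since there is no library of known selection to compare. With 1 RNA preparation in the design, less replication-dependent histone mRNA in the cells and loss of RNA without a tail in the library cannot be told apart.

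The libraries were then set against each other, taking 1 at a time against the remaining 3 in edgeR's quasi-likelihood model, which compares 1 library with 3 and assumes that the lone library varies like the rest. Replicates 1, 3 and 4 gave no call among the 50 histone genes tested, where 0% of all genes were called. With replicate 2 left out of the comparison, few of all genes were called in replicates 1, 3 and 4, and no histone gene was. With so few calls over all genes, this does not set histone genes apart from other genes. With replicate 2 kept, DESeq2 likewise called no histone gene in replicates 1, 3 and 4. In replicate 2, 10.9% of all genes were called higher and 10.2% lower. Of the histone genes 3 were higher and 3 lower, 6 of 50 in all against 21.1% of all genes tested. The share of calls among histone genes was thus not above that of all genes, though many of the histone genes have few counts, which limits calls.

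The 3 genes lower in replicate 2 were variants. H3f3b was lower by 0.35 ± 0.05 on the log2 scale (SE; adjusted p = 1.44e-04, edgeR), the 492 TPM of replicate 2 standing apart from 637 to 664 in the others. H1fx was at -0.93 ± 0.26 (SE; adjusted p = 0.0235) and H2afx at -0.15 ± 0.04 (SE; adjusted p = 0.0264), and for both the value in replicate 2 was below those of the other 3. Only the H3f3b call was also made by DESeq2. The H1fx call was lost without replicate 4 and the H2afx call without replicate 1.

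The 3 genes higher in replicate 2 were of both classes. H2afj was at 0.43 ± 0.06 (SE; adjusted p = 2.3e-04, edgeR), at 145 TPM against 108 to 116. Hist1h1c was at 0.49 ± 0.14 (SE; adjusted p = 0.0237), at 47.5 TPM against 29.0 to 38.7. Hist1h2ag was at 3.21 ± 1.07 (SE) from 0, 17, 2 and 3 counts, a call lost in DESeq2 and without replicate 1. This gene reached the minimum of 10 counts only through replicate 2, so the filter and its call are not independent. The count of higher genes was 5 without replicate 3. The H3f3b, H2afj and Hist1h1c calls were kept in every alternative run.

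H3f3a, H2afz and H2afy did not pass the test in replicate 2: the first was at 0.000492 ± 0.06, the next at -0.04 ± 0.05 and the last at 0.07 ± 0.05 on the log2 scale (SE). The 2 genes for H3.3 thus had different values in replicate 2, though the difference between them was not tested. Of the 39 replication-dependent genes tested, 30 had a positive value in replicate 2, with a median of 0.78 on the log2 scale. The median was -0.01 for all genes tested and 0.00 for the 11 variants, of which 6 were positive. Hist1h2ag, Hist1h3a, Hist1h3b, Hist1h3d, Hist1h3f, Hist1h3h and Hist4h4 reached the minimum of 10 counts only through replicate 2. All but Hist4h4 were positive in that library, so the filter favours positive values there. In replicates 1, 3 and 4 the medians of the replication-dependent genes were -0.12, -0.15 and -0.41. Many of these genes have few counts, so the single values behind these medians are uncertain.

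**Figure D4:**
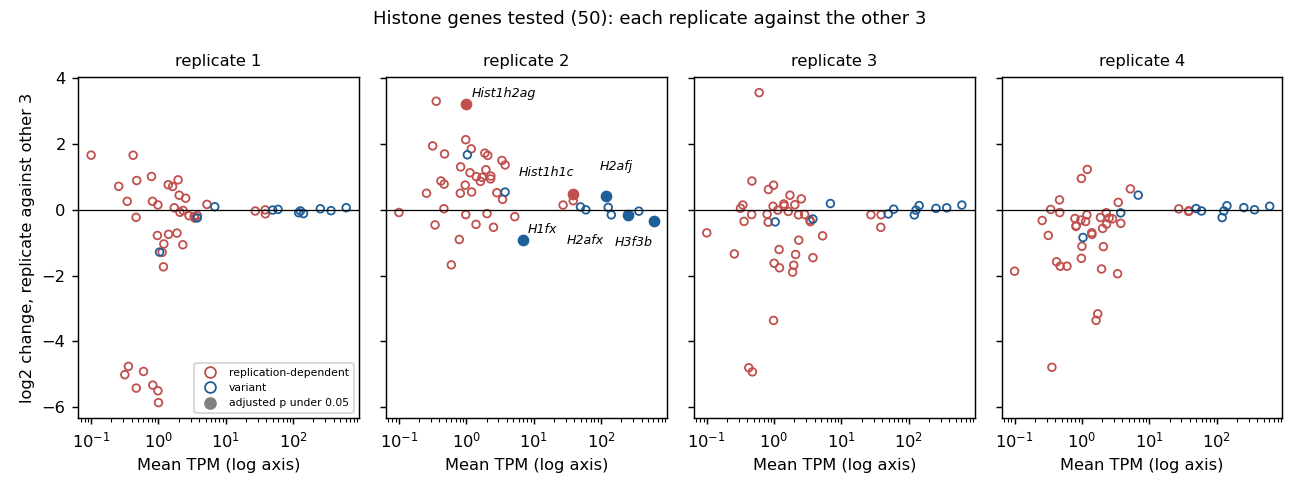
Fitted log2 change of each of the 50 histone genes tested, 1 replicate against the other 3 in each panel, by mean TPM (log axis), with filled points for an adjusted p under 0.05. Calls occur in the replicate 2 panel only, and the points near -5 are genes with 0 counts in that replicate, whose fitted size depends on the prior count.

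For each gene the library with the highest count per total was noted, and replicate 2 was the most frequent one in both classes and in all other genes. Of the 54 replication-dependent genes with a count, replicate 2 was the highest library for 33 (61.1%), replicate 1 for 14 (25.9%), replicate 4 for 5 (9.26%) and replicate 3 for 2 (3.70%). Of the 11 variants with a count, replicate 2 was the highest for 5, replicate 1 for 1, replicate 3 for 2 and replicate 4 for 3. Of the 23734 other genes with a count, 30.4% were highest in replicate 2 and 21.5% to 24.8% in each of the others. These counts carry no test, and genes with a few counts enter them on equal terms with abundant ones. The 62 genes without Hist1h1c, Hist1h2bc and Hist1h4i gave the same order of libraries as a sum, with 83.5 TPM in replicate 2 and 45.2 to 53.6 TPM in the others.

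**Figure D5:**
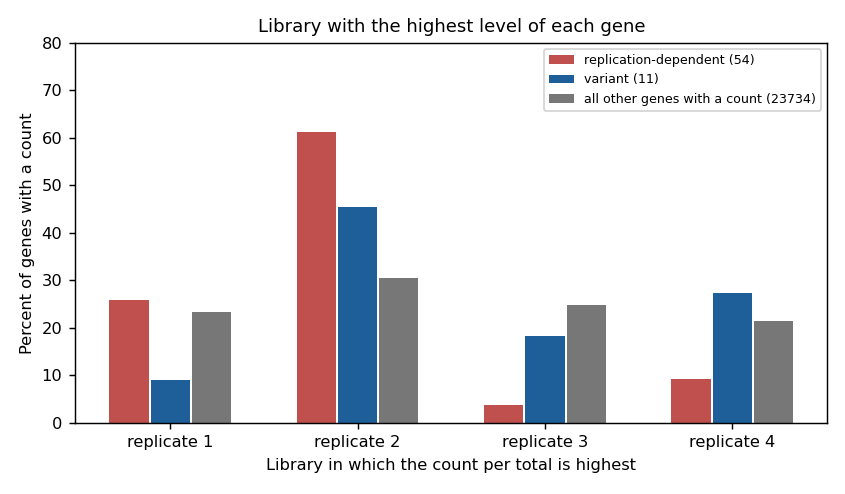
Percent of genes whose count per total is highest in each library, for 54 replication-dependent genes, 11 variants and 23734 other genes with a count. Replicate 2 holds 61.1% of the replication-dependent genes and 30.4% of the other genes.

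In replicate 2 some genes of the histone pathway and the cell cycle were called too, beside the 10.9% of all genes called higher and 10.2% called lower. Of the 14 processing genes 4 were lower and 0 higher, the largest changes being Cpsf2 at -0.41 ± 0.05, Cstf2 at -0.25 ± 0.05 and Slbp at -0.20 ± 0.06 on the log2 scale (SE). Of the 25 chaperone genes 4 were higher and 2 lower, among them Hjurp, the CENP-A chaperone, at -0.56 ± 0.05, Daxx at 0.24 ± 0.06 and Ipo4 at 0.20 ± 0.05 (SE). Of the 24 S phase genes 1 was higher and 5 lower, led by Ccne2 at -0.23 ± 0.06, Mcm3 at -0.23 ± 0.05 and Ccna2 at -0.21 ± 0.05 (SE). Of the 15 genes of G2 and mitosis 0 were higher and 6 lower, led by Ccnb2 at -0.31 ± 0.08, Bub1 at -0.30 ± 0.05 and Kif11 at -0.24 ± 0.06 (SE). The list medians were -0.11, -0.03, -0.09 and -0.11 in that order, beside -0.01 for all genes tested.

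In the same library the Th17 and T cell markers did not change alike, shown here against the range of the other libraries. Il17a was at 505 TPM, Il17f at 578 and Ccr6 at 51.5, against 2155 to 2543, 2619 to 2909 and 229 to 250. Il22 was at 183 TPM, Il23r at 17.7 and Rora at 19.2, against 304 to 385, 24.9 to 31.3 and 30.1 to 31.6. Cd3d, Cd4 and Batf were at 286, 486 and 908 TPM, against 294 to 307, 487 to 516 and 947 to 987. Cd3e, at 123 TPM, lay within its range of 117 to 125. The poly(A)-minus RNAs gave 0 calls among 4 tested and a sum of 24.9 TPM, within the 23.1 to 33.4 TPM of the others. Of the markers of other cells, both CD8 T and NK genes tested were lower (Cd8b1 at -0.47 ± 0.12 and Prf1 at -1.74 ± 0.27 on the log2 scale, SE), as was 1 of 5 tested myeloid genes (Adgre1), and the B cell, erythroid and germline lists had 0 calls. Whether the state or makeup of the cells in replicate 2 has a part in its histone values was not tested.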

How the data were processed

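The members, classes and gene lists were chosen with earlier results of these data known. Counts were made by the authors with featureCounts 1.4.6-p4, per the file headers (paired reads, strand option 2, both ends mapped, GENCODE release M13). The deposited values are raw counts. The deposited tables also give each gene's summed exon length. Per the labels the genome build was mm10. The aligner is not given in the sources used here.

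Symbols came from GENCODE M21 and matched 50376 of 50600 identifiers. TPM was computed here from count and length. No pair of libraries agreed within sampling noise, so each was counted as 1 sample (n = 4); this does not show that they are independent animals. Levels were tested against 1 TPM with an intercept-only quasi-likelihood fit in edgeR 4.0.16, with log length and library scale as offset and F formed from deviances, and replicates were compared with TMM scaling, both on genes with at least 10 counts summed (17337) with Benjamini-Hochberg adjustment at 0.05. A standard error is the absolute log2 change divided by the root of F. The tests were checked on simulated data. Alternatives used DESeq2 1.42.0, limma 3.58.1, other scalings, filters, pseudocounts and each replicate left out; a robust prior in edgeR was added after seeing the data. Loops, AATAAA and shared stretches were searched in M21 transcripts and placed on the counted exons, with promoters from RefSeq. Histone genes are named where their mean reached 1 TPM or they had a call, and of each list the 3 highest and the 3 largest called changes. Hist1h1a, the genes below 1 TPM, Zfp473, Srcap, Lsm11 and Hinfp were named after their values were seen. The same holds for some examples at 0 counts, the Th17 and T cell markers and the markers of other cells.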

Additional observations from a re-analysis of the deposited data

Results flagged for a closer look

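In 10 of 71 histone levels, sums and shares checked, 1 of the 4 libraries lay far from the others by Dixon's criterion, which chance alone meets in about 1 in 20 groups, and several of these values overlap. In replicate 2, H3f3b was at 492.1 TPM against 637 to 664 in the other 3, and with it the H3 sum was 565.9 TPM, the variant H3 sum 549.8 TPM and the H3 share of histone TPM 31.68%, all lower than in the others. The share of H3f3b, H2afz and H2afx in variant TPM was also lowest there, at 67.18% against 71.6% to 71.8%. Hist1h2bj was highest in replicate 2, at 3.584 TPM against 2.51 to 2.67, from 12 to 19 counts per library. The H4 sum, all of it replication-dependent, was 47.55 TPM in replicate 2 against 35.7 to 36.9, and the H4 share of histone TPM was 2.661% against 1.83% to 1.93%. In replicate 3 the H4 share of replication-dependent TPM was 26.26% against 23.5% to 23.9%.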

How the results depend on the processing

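No paired analysis was possible because the labels give 1 group. The direction of the class difference was the same in every alternative, with -5.126 on log2(TPM + 1), -5.654 over members of at least 1 TPM, -4.102 for means, -7.016 in CPM, -2.586 with classes set by the stem-loop, -5.071 with H2afx counted as replication-dependent and -5.859 without the members with most stretches shared. Without each replicate it was -6.727 to -6.43. In CPM, which does not correct for length, the shares of histone signal were 3.232% for replication-dependent and 96.77% for variant genes, and 8.485% for H1, 46.76% for H2A, 0.953% for H2B, 43.26% for H3 and 0.5424% for H4.

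The histone genes below 1 TPM numbered 12 with no count minimum and 0 with at least 100 counts, since fewer low genes were then tested. In replicate 2 the genes higher numbered 3 to 5 and those lower 2 to 3 with 1 replicate left out, and DESeq2 called 1 lower. The other counts of calls were within 1.5 times their main value, and replicates 1, 3 and 4 kept 0 calls. Of the single-gene values 279 kept direction and side of the threshold, 3 gained and 12 lost a call. Reversed were levels close to 1 TPM: with 1 replicate left out, Hist1h2bb ranged from -0.1704 (replicate 4) to 0.5612, Hist1h4h from -0.456 (replicate 2) to 0.5345, Hist1h1b from -0.1691 (replicate 2) to 0.4155 and H1foo from -0.5501 (replicate 2) to 0.2866, and with limma H1foo at -0.000775 and Hist1h2ag at -0.8248, all log2 against 1 TPM. Depth limits the 62 weaker replication-dependent genes, with 379 to 623 counts together per library.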

Other observations

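Promoters of 59 replication-dependent and 13 variant genes were matched in the RefSeq table (GRCm38.p6), as windows of 250 bases before to 50 after the start. The letters CCAAT, searched on both strands, were found in 84.7% of the replication-dependent and 69.2% of the variant windows, and in 41.1% of the windows of 27025 genes. A pair or more of CCAAT matches was found in 69.5%, 53.8% and 13.3% in that order. The letters TATAAA, on both strands, were found in 59.3% of replication-dependent windows, in 7.69% of variant windows (H3f3b alone) and in 15.7% of all. These are counts of letters in a window and carry no test.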
